A study of Mus musculus with 6 samples.

Results

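T cell receptor signalling kinases, adaptors and their regulators were examined in CD8+ T cells of the spleen after hematopoietic stem cell transplantation (HSCT) in mice, a graft from which donor cells rebuild the blood of the host. The 36 genes were a list chosen by name, and all 36 were among the 14750 genes of the deposited table. The table holds 3 libraries labelled allo-HSCT, in which C57BL/6 cells were given to Balb/c hosts, and 3 labelled syn-HSCT, in which donor and host were Balb/c. Per the labels' protocols, CD8+ cells were taken from spleen suspensions with an isolation kit, and rRNA-depleted total RNA was sequenced; the age of the mice, the time after transplantation and any conditioning of the hosts are not stated in what was used here. Nothing in the labels ties the 3 libraries of a group to 3 different mice, so each p-value reflects spread among libraries that may be no more than technical.

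The values of strain-dependent genes ran against the labels. H2-Ea-ps, a class II gene that Balb/c mice transcribe and C57BL/6 mice do not, had 1955 FPKM ± 48.9 under the allo-HSCT label, against 4.76 FPKM ± 1.66 under the syn-HSCT label. H2-Eb1, a class II gene of both strains, was also far higher, at 1355 FPKM ± 25.6 under the allo-HSCT label, against 48.0 FPKM ± 3.12 under the syn-HSCT label. Ly6a, an antigen that T cells of C57BL/6 mice carry at a higher level, had 28.6 FPKM ± 1.75 under the allo-HSCT label, against 332 FPKM ± 0.438 under the syn-HSCT label (SD, n = 3 each). The library titles carry the letter S for those labelled allo-HSCT and the letter A for those labelled syn-HSCT. The groups are therefore called allo-labelled and syn-labelled, and every direction below is one between libraries as labelled. By the labels the groups also differ in the strain of the donor.

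When a T cell receptor binds its ligand, the kinase LCK, held at the CD8 co-receptor, phosphorylates the CD3 and zeta chains, and ZAP70 docks there and phosphorylates the scaffolds LAT and SLP-76. Phospholipase C gamma, the exchange factors RASGRP1 and VAV1, and protein kinase C theta with BCL10 and MALT1 then carry the signal to calcium and NFAT, to RAS and to NF-kappaB. Phosphatases, the kinase CSK, diacylglycerol kinases and the ubiquitin ligase CBL-B restrain these steps. The genes were sorted by this knowledge into 20 positive regulators, 12 negative regulators and 4 with both roles (Ptprc, Themis, Sh2d2a and Cd6).

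Within the list, negative regulators were mostly lower in allo-labelled libraries, while positive regulators went both ways. The further pathway genes given below were not sorted by role, so this holds for negative regulators of the list only. Of the 12 negative regulators 9 were lower, 2 (Csk and Ptpn6) were higher and 1 (Dgkz) was not called; with each library divided by the level of its CD3 chains (called relative to the CD3 chains from here on), 4 were lower and 5 higher. Of the 20 positive regulators 8 were higher, 5 lower and 7 not called, and relative to the CD3 chains 17 were higher and 2 lower. Over all genes tested 34.7% were higher and 33.0% lower, and relative to the CD3 chains 67.5% and 10.7%. The share called was 91.7% for the negative and 65.0% for the positive regulators. For all genes it was 67.6%, so the positive regulators were near the share of all genes. The median log2 difference was -0.38 over the negative and 0.030 over the positive regulators, against 0.0083 over all 12404 genes tested. Values are FPKM, fragments per kilobase of gene scaled to a common library total. A difference is allo-labelled minus syn-labelled in log2(FPKM + 1), where the added 1 shrinks the change of genes with low values. A gene was called at a limma adjusted p under 0.05 (Benjamini-Hochberg over all genes tested).

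Over the whole list, 12 genes were higher, 16 lower and 8 not called, so 77.8% were called, against 67.6% of all genes tested. Higher calls made up 34.7% and lower calls 33.0% of all genes tested. The 3 and 3 libraries did not overlap at 31 of the 36 genes, which is 86.1%, against 72.3% of all genes tested. The differences were small to moderate in size. In log2(FPKM + 1) differences none of the 36 passed 2-fold, which 15.3% of all genes did, though Txk lies at this limit and is past it in plain FPKM (2.19-fold), with a pseudocount of 0.1 and by voom (1.12 each on the log2 scale). Of the 36, 12 (33.3%) passed 1.5-fold, which 29.5% of all genes did. Tested with limma's treat against a 1.5-fold change, 2 genes were higher (Txk and Plcg1) and 8 lower (Cblb, Cd2, Nfatc1, Ptpn22, Sh2d2a, Sla2, Themis and Ubash3b). Over all genes that test called 19.2%, with 12.0% higher and 7.21% lower. Voom on recovered fragments gave 12 higher and 17 lower of the 36, with 70.2% of all genes called. In these bulk samples, fewer cells of a type and less RNA per cell cannot be told apart.

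**Figure D1:**
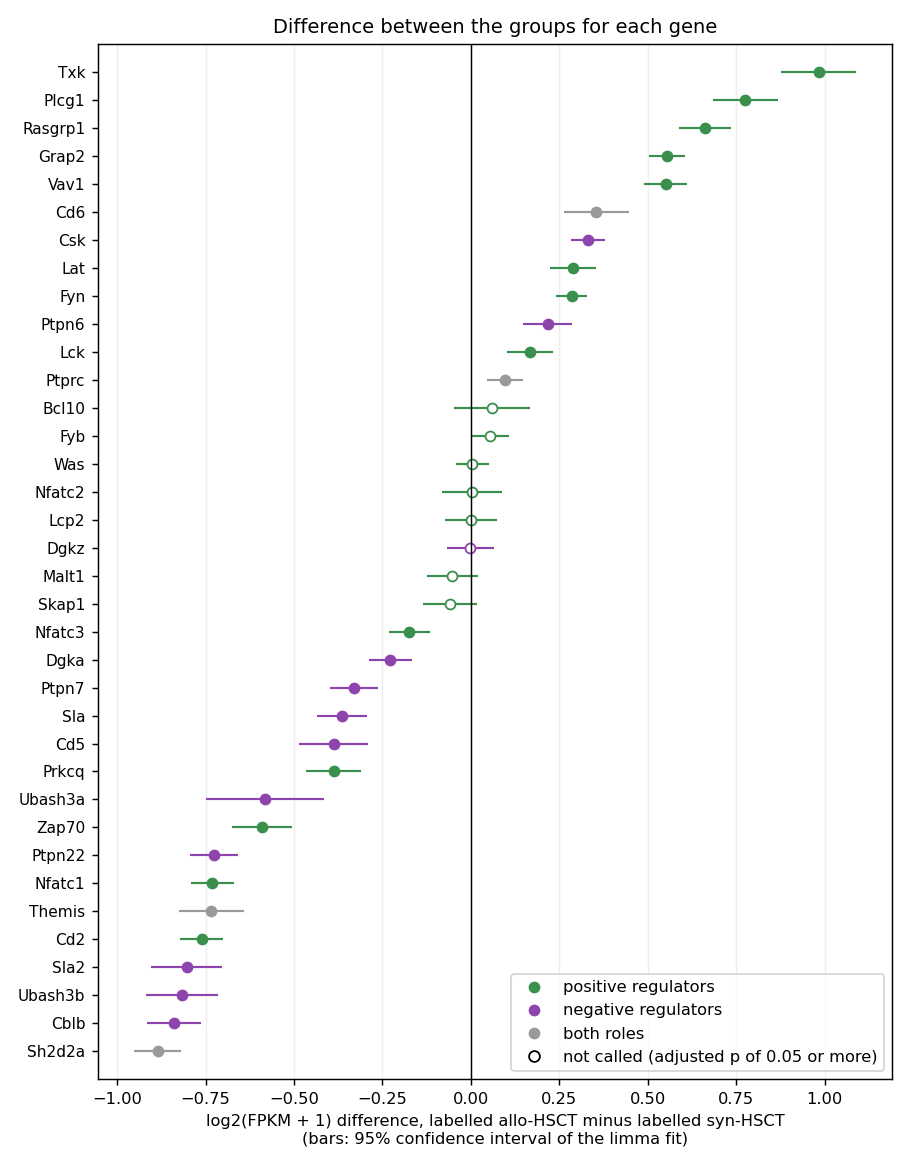
The log2(FPKM + 1) difference of each of the 36 genes, allo-labelled minus syn-labelled, with the 95% confidence interval of the limma fit; colours mark positive and negative regulators and open circles genes not called. Differences run from 0.98 for Txk to -0.89 for Sh2d2a; divided by the CD3 chains, Prkcq, Ptpn7, Sla, Dgka, Cd5, Nfatc3, Malt1, Skap1 and Dgkz turn from below to above 0.

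**Figure D2:**
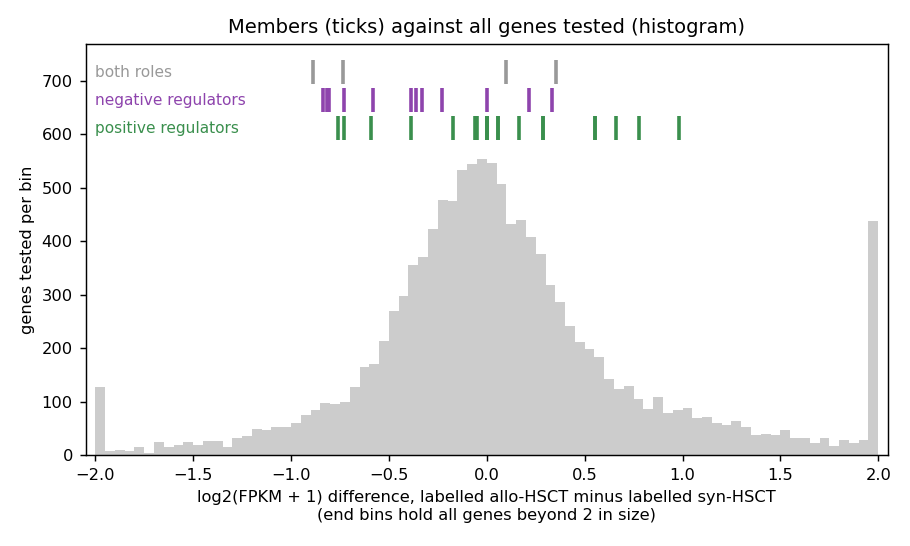
Histogram of the log2(FPKM + 1) difference (allo-labelled minus syn-labelled) of all 12404 genes tested, with a tick for each of the 36 genes, coloured by role. The end bins hold all genes beyond 2 in size. The 36 lie between -0.89 and 0.98, and their median was -0.027 against 0.0083 for all genes.

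Sequence at an annotated start is shown for genes with a RefSeq promoter window (29 of 36 matched by symbol). Of these, the pair with the largest higher and the pair with the largest lower differences were taken. Sh2d2a, which has the largest lower difference of the list, had no matched window. Each run is the 250 bases before the start that RefSeq annotates in GRCm38.p6, 5′ to 3′ on the strand of the gene, from the first window listed for the gene. The windows are chr5:72752778-72753027 on the minus strand for Txk, chr2:160731060-160731309 on the plus strand for Plcg1, chr16:52031299-52031548 on the plus strand for Cblb and chr9:41158063-41158312 on the minus strand for Ubash3b. The windows of Cblb and Ubash3b lie inside these genes as GENCODE vM21 draws them, since its starts are farther upstream, and that of Plcg1 runs into its gene by its last bases. Capitals mark matches to the motifs searched on both strands.
Txk: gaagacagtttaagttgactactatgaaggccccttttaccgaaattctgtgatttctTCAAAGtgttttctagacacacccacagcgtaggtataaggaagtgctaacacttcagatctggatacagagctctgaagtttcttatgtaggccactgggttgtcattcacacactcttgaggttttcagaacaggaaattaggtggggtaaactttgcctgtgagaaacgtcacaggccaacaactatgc
Plcg1: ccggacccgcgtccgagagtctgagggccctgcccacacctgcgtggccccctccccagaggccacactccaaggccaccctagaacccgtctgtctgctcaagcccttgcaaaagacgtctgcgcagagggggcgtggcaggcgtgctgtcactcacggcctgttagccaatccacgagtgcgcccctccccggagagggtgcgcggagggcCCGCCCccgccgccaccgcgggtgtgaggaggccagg
Cblb: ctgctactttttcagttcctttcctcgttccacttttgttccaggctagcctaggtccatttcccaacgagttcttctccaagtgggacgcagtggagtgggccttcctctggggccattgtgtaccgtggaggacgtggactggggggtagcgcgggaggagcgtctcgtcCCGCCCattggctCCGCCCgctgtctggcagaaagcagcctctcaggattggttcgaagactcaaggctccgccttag
Ubash3b: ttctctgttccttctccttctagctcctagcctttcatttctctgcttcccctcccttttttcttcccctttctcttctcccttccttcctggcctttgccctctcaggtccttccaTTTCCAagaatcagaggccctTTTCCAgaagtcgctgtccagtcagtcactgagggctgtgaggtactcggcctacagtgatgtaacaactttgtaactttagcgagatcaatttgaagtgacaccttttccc
The motifs were CCGGAAG (ETS), TGTGGT (RUNX), CTTTGA (TCF/LEF), TGGAAA (NFAT) and GGGCGG (GC box); none of them contains another. The Txk window held 1 TCF/LEF match, that of Plcg1 1 GC box, that of Cblb 2 GC boxes and that of Ubash3b 2 NFAT matches. The GC box letters were in 6 of 11 windows of higher genes, 3 of 12 of lower genes and 2 of 6 of genes not called, against 32.9% of 27025 windows of all genes. The NFAT letters were in 1, 3 and 1 of these windows, against 18.7% of all, and the ETS letters in 0, 0 and 0, against 7.05%. The TCF/LEF letters were in 3, 2 and 1 (14.0% of all) and the RUNX letters in 1, 1 and 1 (14.2% of all). A match describes the letters only.

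The level of the genes spanned from Lck, the highest in both groups, to Txk, the lowest in both. In allo-labelled libraries Lck was followed by Ptprc (144 FPKM ± 1.53), Cd2 (127 ± 3.66), Fyn (122 ± 0.735), Ptpn6 (118 ± 3.95) and Lat (117 ± 2.63). In syn-labelled libraries the order after Lck was Cd2 (216 FPKM ± 1.54), Ptprc (135 ± 2.44), Dgka (116 ± 2.49), Ptpn6 (102 ± 1.44) and Fyn (99.8 ± 0.675; SD, n = 3 each). Neighbours such as Ptpn6 and Lat in allo-labelled libraries, or Lat (95.2 FPKM ± 2.31) and Zap70 (94.7 FPKM ± 4.09) in syn-labelled libraries, did not differ beyond their spread. Several genes stood at other places in the order: Zap70 was 13th in allo-labelled and 8th in syn-labelled libraries, Sh2d2a 17th and 9th, Vav1 11th and 20th, and Grap2 9th and 15th. All 36 passed the filter of at least 1 FPKM in at least 3 libraries, and each had at least 678 recovered fragments in every library.

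**Figure D3:**
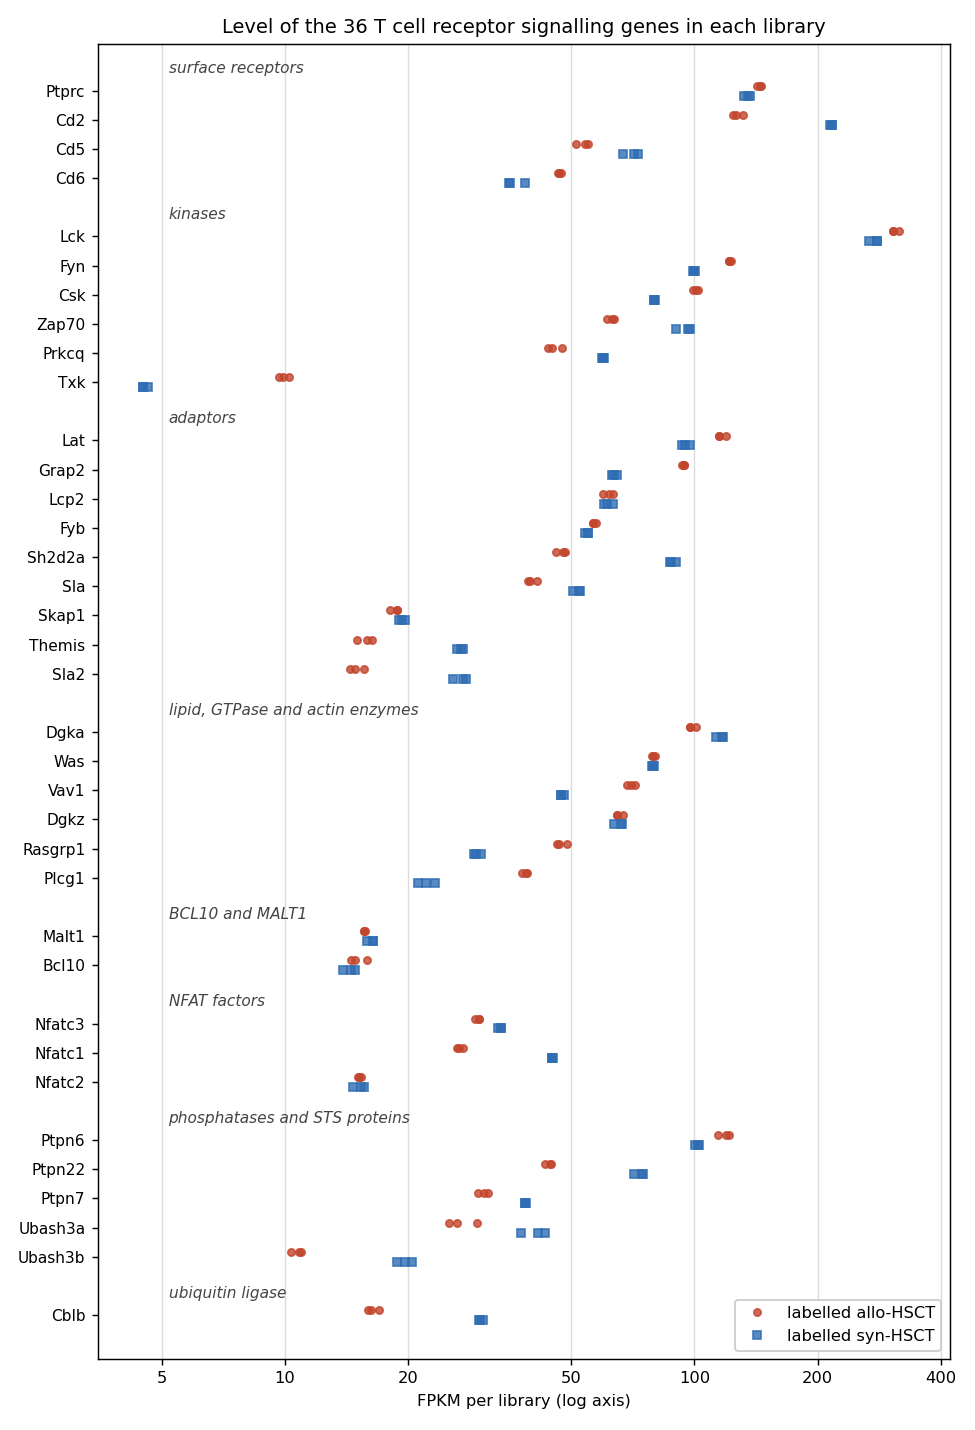
FPKM of each gene in each library on a log axis, by role, with allo-labelled libraries as circles and syn-labelled libraries as squares just below them. The libraries of a group lie close together: Lck is between 305 and 317 FPKM in allo-labelled and between 267 and 279.9 FPKM in syn-labelled libraries.

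Of the 6 kinases 4 were higher (Lck, Fyn, Txk and Csk) and 2 lower (Zap70 and Prkcq). Lck, the Src-family kinase that starts the signal, stood at 317, 306 and 305 FPKM in allo-labelled libraries, against 279, 267 and 279.9 FPKM in syn-labelled libraries. Zap70, the kinase that docks on the phosphorylated CD3 and zeta chains, stood at 61.1, 63.6 and 62.9 FPKM in allo-labelled libraries, against 97.6, 90.0 and 96.5 FPKM in syn-labelled libraries. Neither gene overlapped between groups: every allo-labelled library was above the syn-labelled ones for Lck and below them for Zap70. Lck was 1.12-fold higher (log2 difference 0.17 ± 0.027, SE, limma adjusted p = 0.00144) and Zap70 1.51-fold lower (-0.59 ± 0.036, SE, limma adjusted p = 9.90e-06). Relative to the CD3 chains Zap70 was at -0.11 and lost its call (limma adjusted p = 0.0836, 5.65e-11 to 1.00 over 18 settings).

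Txk, a TEC-family kinase that acts on phospholipase C gamma, had the largest difference of the list. It stood at 10.2, 9.93 and 9.70 FPKM in allo-labelled libraries, against 4.50, 4.63 and 4.50 FPKM in syn-labelled libraries. The groups were far apart, at 2.19-fold (log2 difference 0.98 ± 0.045, SE, limma adjusted p = 2.52e-06). Fyn, the other Src-family kinase of T cells, was 1.22-fold higher, at 122 FPKM ± 0.735 in allo-labelled and 99.8 FPKM ± 0.675 in syn-labelled libraries. Csk, which inhibits LCK and FYN by phosphorylating their tail, was 1.26-fold higher, at 101 FPKM ± 1.45 in allo-labelled and 79.8 FPKM ± 0.401 in syn-labelled libraries. Prkcq, protein kinase C theta, was 1.31-fold lower, at 45.5 FPKM ± 1.84 in allo-labelled and 59.8 FPKM ± 0.323 in syn-labelled libraries (SD, n = 3 each); its difference of -0.39 turned to 0.088 relative to the CD3 chains. In the GENCODE vM21 annotation of GRCm38, matched by gene identifier, Lck lies on chromosome 4 from 129548344 to 129573641, Zap70 on chromosome 1 from 36761798 to 36782818 and Txk on chromosome 5 from 72695978 to 72752777, all protein-coding.

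Among the adaptors, the scaffold Lat and its partner Grap2 were higher, 3 were not called and 4 were lower. Lat, the membrane scaffold on which the signalling complex assembles, stood at 115, 115 and 119.6 FPKM in allo-labelled libraries, against 97.7, 93.1 and 94.8 FPKM in syn-labelled libraries. Grap2 encodes GADS, which links SLP-76 to LAT, and stood at 94.6, 94.3 and 93.1 FPKM in allo-labelled libraries, against 62.8, 64.8 and 63.5 FPKM in syn-labelled libraries. For both genes all allo-labelled libraries were above all syn-labelled ones. Lat was 1.22-fold higher (log2 difference 0.29 ± 0.027, SE, limma adjusted p = 9.18e-05) and Grap2 1.48-fold higher (0.55 ± 0.022, SE, limma adjusted p = 1.28e-06).

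Sh2d2a, the gene of the T cell-specific adaptor TSAd that binds LCK, had the largest lower difference of the list. It stood at 46.0, 47.8 and 48.3 FPKM in allo-labelled libraries, against 90.2, 87.7 and 87.1 FPKM in syn-labelled libraries. Each allo-labelled library was far below the syn-labelled ones, and the gene was 1.86-fold lower (log2 difference -0.89 ± 0.028, SE, limma adjusted p = 4.92e-07). Themis, an adaptor that tunes receptor signals during thymic selection, was 1.70-fold lower, at 15.7 FPKM ± 0.677 in allo-labelled and 26.8 FPKM ± 0.495 in syn-labelled libraries. The SRC-like adaptors, which promote loss of the receptor from the surface, were both lower. Sla2 was at 15.0 FPKM ± 0.573 in allo-labelled and 26.9 FPKM ± 1.01 in syn-labelled libraries, and Sla at 40.1 FPKM ± 1.12 in allo-labelled and 51.9 FPKM ± 1.06 in syn-labelled ones (SD, n = 3 each), though Sla was at 0.11 relative to the CD3 chains. Of the exonic bases of Sla2, 23.6% are shared with Rab5if on the opposite strand, and since the use of strand in counting was not given, reads of the pair cannot be told apart. Rab5if was higher, at 13.6 FPKM in allo-labelled and 11.7 FPKM in syn-labelled libraries.

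The other 3 adaptors showed no called difference. Lcp2, the gene of SLP-76, stood at 63.1, 59.8 and 61.9 FPKM in allo-labelled libraries, against 60.2, 61.1 and 63.3 FPKM in syn-labelled libraries. Skap1 had 18.8, 18.0 and 18.7 FPKM in allo-labelled libraries, against 19.4, 19.0 and 19.6 FPKM in syn-labelled libraries. Fyb, whose protein ADAP binds SKAP1 and links the receptor to integrins, had 56.6, 57.4 and 56.4 FPKM in allo-labelled libraries, against 53.9, 54.9 and 55.1 FPKM in syn-labelled libraries. Lcp2 overlapped between groups while Skap1 and Fyb did not. Skap1 was called lower under TMM scaling and Fyb, with Lcp2, higher under quantile normalization. The 95% confidence interval of the log2 difference ran from -0.072 to 0.075 for Lcp2, from -0.14 to 0.018 for Skap1 and from 0.0043 to 0.11 for Fyb (limma adjusted p = 0.967, 0.148 and 0.0551).

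Of the enzymes that act below LAT, Plcg1, Rasgrp1 and Vav1 were higher, Dgka was lower, and Dgkz and Was were not called. Plcg1, phospholipase C gamma 1, which makes inositol trisphosphate and diacylglycerol, stood at 38.0, 38.9 and 39.1 FPKM in allo-labelled libraries, against 21.2, 22.1 and 23.3 FPKM in syn-labelled libraries. No library of one group came near the other, and the gene was 1.74-fold higher (log2 difference 0.78 ± 0.038, SE, limma adjusted p = 3.86e-06). Rasgrp1, the RAS exchange factor that diacylglycerol recruits, was 1.60-fold higher, at 47.2 FPKM ± 1.41 in allo-labelled and 29.4 FPKM ± 0.617 in syn-labelled libraries. Vav1, an exchange factor for small GTPases of the actin skeleton, was 1.47-fold higher, with 70.0 FPKM ± 1.68 in allo-labelled and 47.5 FPKM ± 0.489 in syn-labelled libraries (SD, n = 3 each). Plcg1 shares 4.82% of its exonic bases with Zhx3 on the opposite strand.

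Dgka, a diacylglycerol kinase that removes this messenger, stood at 97.7, 100.9 and 97.5 FPKM in allo-labelled libraries, against 117, 118 and 113 FPKM in syn-labelled libraries. Its groups did not overlap and it was 1.17-fold lower (log2 difference -0.23 ± 0.025, SE, limma adjusted p = 0.000204), though at 0.25 relative to the CD3 chains. Its relative Dgkz had 64.7, 64.7 and 66.9 FPKM in allo-labelled libraries, against 66.8, 63.6 and 66.2 FPKM in syn-labelled libraries. Was, the gene of the actin regulator WASP, had 78.6, 80.1 and 79.5 FPKM in allo-labelled libraries, against 78.8, 79.7 and 79.2 FPKM in syn-labelled libraries. Both overlapped between the groups, with 95% confidence intervals from -0.068 to 0.066 for Dgkz and from -0.043 to 0.050 for Was (limma adjusted p = 0.976 and 0.882). Under quantile normalization both were called higher.

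Bcl10 and Malt1, whose proteins form a complex that activates NF-kappaB, were not called. Bcl10 stood at 14.5, 15.9 and 14.8 FPKM in allo-labelled libraries, against 14.5, 14.8 and 13.9 FPKM in syn-labelled libraries. Malt1 stood at 15.7, 15.6 and 15.6 FPKM in allo-labelled libraries, against 16.4, 15.9 and 16.4 FPKM in syn-labelled libraries. The groups overlapped for Bcl10, while Malt1 was slightly below in every allo-labelled library. The 95% confidence interval ran from -0.048 to 0.17 for Bcl10 and from -0.13 to 0.021 for Malt1 (limma adjusted p = 0.276 and 0.174). Malt1 was called lower by voom on recovered fragments.

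The NFAT factors, which calcineurin sends to the nucleus after calcium entry, differed from each other. Nfatc1, the member that receptor signals induce through its own promoter, stood at 26.3, 26.7 and 27.3 FPKM in allo-labelled libraries, against 45.3, 44.9 and 44.9 FPKM in syn-labelled libraries. This was 1.68-fold lower with no overlap (log2 difference -0.73 ± 0.025, SE, limma adjusted p = 7.18e-07). Nfatc2 stood at 15.1, 15.4 and 15.2 FPKM in allo-labelled libraries, against 15.6, 15.3 and 14.7 FPKM in syn-labelled libraries. These groups overlapped, with a 95% confidence interval from -0.081 to 0.087 (limma adjusted p = 0.939). Nfatc3 was 1.13-fold lower, at 29.6 FPKM ± 0.331 in allo-labelled and 33.5 FPKM ± 0.362 in syn-labelled libraries (SD, n = 3 each), and at 0.30 relative to the CD3 chains.

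Of the phosphatases and the related STS proteins, 4 were lower and 1 was higher. Ubash3b encodes STS-1, which dephosphorylates ZAP70, and stood at 10.4, 10.9 and 10.9 FPKM in allo-labelled libraries, against 19.7, 18.8 and 20.4 FPKM in syn-labelled libraries. Ptpn6 encodes SHP-1, a phosphatase shared with B and myeloid cells, and stood at 122, 114 and 119.7 FPKM in allo-labelled libraries, against 103, 102 and 100.1 FPKM in syn-labelled libraries. The groups did not overlap for either gene, and they lay in opposite directions. Ubash3b was 1.83-fold lower (log2 difference -0.82 ± 0.043, SE, limma adjusted p = 4.93e-06) and Ptpn6 1.16-fold higher (0.22 ± 0.029, SE, limma adjusted p = 0.000531). Ptpn22, the gene of a phosphatase that acts on LCK and ZAP70 together with CSK, was 1.67-fold lower, at 44.1 FPKM ± 0.773 in allo-labelled and 73.6 FPKM ± 2.01 in syn-labelled libraries. Ubash3a was 1.52-fold lower, at 27.0 FPKM ± 2.16 in allo-labelled and 40.9 FPKM ± 2.81 in syn-labelled libraries. Ptpn7, a MAP kinase phosphatase gene, was 1.27-fold lower, at 30.5 FPKM ± 0.834 in allo-labelled and 38.6 FPKM ± 0.199 in syn-labelled libraries (SD, n = 3 each). Relative to the CD3 chains Ubash3a was at -0.11 and not called (limma adjusted p = 0.128), and Ptpn7 was at 0.14.

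Cblb, the gene of the ubiquitin ligase that raises the threshold of T cell activation, stood at 16.2, 17.0 and 16.0 FPKM in allo-labelled libraries, against 30.0, 30.4 and 29.8 FPKM in syn-labelled libraries. No library of one group approached the other. It was 1.84-fold lower (log2 difference -0.84 ± 0.032, SE, limma adjusted p = 1.19e-06) and remained lower relative to the CD3 chains, at -0.37.

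Surface receptors that feed into the cascade went both ways. Cd2, which binds CD48 on other cells in the mouse, stood at 131, 124 and 126 FPKM in allo-labelled libraries, against 217, 217 and 214 FPKM in syn-labelled libraries. Cd6, a receptor related to CD5, stood at 46.4, 46.8 and 47.3 FPKM in allo-labelled libraries, against 38.6, 35.2 and 35.5 FPKM in syn-labelled libraries. Every allo-labelled library was below the syn-labelled ones for Cd2 and above them for Cd6. Cd2 was 1.70-fold lower (log2 difference -0.76 ± 0.025, SE, limma adjusted p = 6.39e-07) and Cd6 1.29-fold higher (0.36 ± 0.039, SE, limma adjusted p = 0.000182). Cd5, an inhibitory receptor whose level follows the strength of receptor signals in the thymus, was 1.31-fold lower, at 53.6 FPKM ± 1.93 in allo-labelled and 70.4 FPKM ± 3.02 in syn-labelled libraries, and was at 0.090 relative to the CD3 chains. Ptprc encodes CD45, the phosphatase that keeps LCK active and is made by all white blood cells; it was 1.07-fold higher, with 144 FPKM ± 1.53 in allo-labelled and 135 FPKM ± 2.44 in syn-labelled libraries (SD, n = 3 each).

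Ratios of a pair of genes within a library do not depend on how libraries are scaled. The ratio of Lck to Zap70 was 4.95 ± 0.201 in allo-labelled and 2.91 ± 0.051 in syn-labelled libraries, and that of Lat to Zap70 was 1.86 ± 0.050 in allo-labelled and 1.01 ± 0.026 in syn-labelled libraries. Rasgrp1 to Dgka, genes of a sensor and a remover of the same lipid, was 0.478 ± 0.019 in allo-labelled and 0.254 ± 0.011 in syn-labelled libraries, and Plcg1 to Dgka 0.392 ± 0.0082 in allo-labelled and 0.192 ± 0.013 in syn-labelled libraries. Both ratios were higher in every allo-labelled library. Nfatc1 to Nfatc2 was 1.76 ± 0.037 in allo-labelled and 2.97 ± 0.085 in syn-labelled libraries, and Cd5 to Cd6 1.14 ± 0.052 in allo-labelled and 1.93 ± 0.105 in syn-labelled libraries. Both of these were lower in every allo-labelled library (SD, n = 3 for all ratios). Lck to Csk was 3.07 ± 0.070 in allo-labelled and 3.45 ± 0.087 in syn-labelled libraries, which is a ratio 1.12-fold lower. The pairs were chosen after the values of the genes were seen, so the ratios are a description: that the groups overlap in none of the 14 computed follows largely from this choice.

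**Figure D4:**
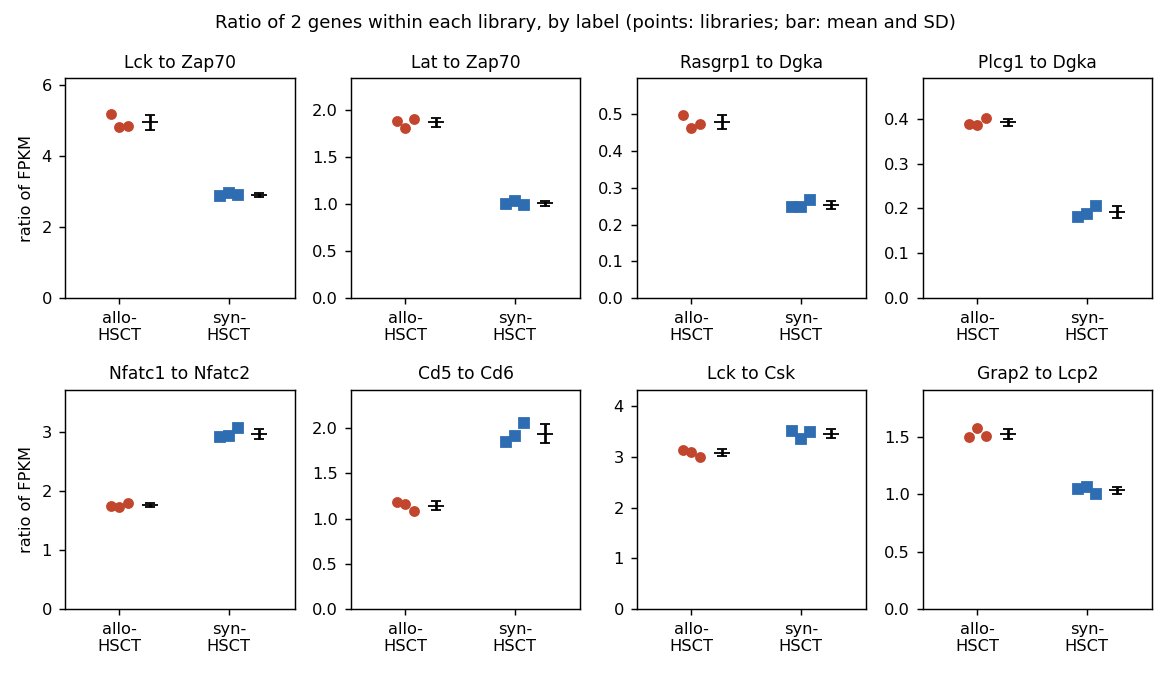
Ratio of the FPKM of 2 genes within each library for 8 of the 14 ratios, allo-labelled left and syn-labelled right, with mean and SD beside the points. The ratio of Lck to Zap70 is at 4.81 to 5.18 in allo-labelled and at 2.86 to 2.96 in syn-labelled libraries.

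The receptor chains to which these kinases bind were mostly lower. Of 9 receptor and co-receptor genes 7 were lower, 1 higher and 1 not called, while 33.0% of all genes tested were lower and 34.7% higher. Cd3e was at 71.7 FPKM ± 0.472 in allo-labelled and 80.1 FPKM ± 3.27 in syn-labelled libraries, and Cd3d at 121 ± 6.86 in allo-labelled and 177 ± 3.17 FPKM in syn-labelled libraries. Cd3g was at 73.7 FPKM ± 2.52 in allo-labelled and 124 FPKM ± 5.85 in syn-labelled libraries, and Cd247, the zeta chain, at 36.2 FPKM ± 0.583 in allo-labelled and 45.5 FPKM ± 0.840 in syn-labelled libraries. Of the constant genes, Trac was at 278 FPKM ± 4.41 in allo-labelled and 447 FPKM ± 5.91 in syn-labelled libraries, Trbc1 at 213 FPKM ± 7.64 in allo-labelled and 344 FPKM ± 10.4 in syn-labelled libraries, and Trbc2 at 475 FPKM ± 34.8 in allo-labelled and 712 FPKM ± 6.66 in syn-labelled libraries. Cd8a, whose protein binds LCK, was higher, with 351 FPKM ± 9.69 in allo-labelled and 240.2 FPKM ± 1.27 in syn-labelled libraries. Cd8b1 had 489.6 FPKM ± 20.8 in allo-labelled and 483 FPKM ± 9.38 in syn-labelled libraries (SD, n = 3 each) and was not called (limma adjusted p = 0.634). Which cells of these bulk samples made the Cd8a transcripts was not tested. Cd3d, Cd3e and Cd3g are the base of the CD3 scaling, so their own direction relative to it is set by construction.

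To set the genes against the amount of receptor transcript, each library was divided by its geometric mean of Cd3d, Cd3e and Cd3g, which was 83.6 to 88.9 FPKM in allo-labelled and 119.3 to 122 FPKM in syn-labelled libraries. This moved the median log2 difference of all genes to 0.43 and that of the 36 genes to 0.43, so the list moved with the rest of the table. By limma on these values 24 of the 36 were higher and 8 lower, against 67.5% and 10.7% of all genes. Lck was at 0.65, Fyn at 0.77, Lat at 0.77 and Txk at 1.40. For Lck the direction depended on the base. Lck to Cd3e was 4.31 ± 0.069 in allo-labelled and 3.44 ± 0.162 in syn-labelled libraries. Lck to Cd8a was instead lower, at 0.881 ± 0.0082 in allo-labelled and 1.15 ± 0.033 in syn-labelled libraries (SD, n = 3 each). The 8 genes that stayed lower were the same 8 that were lower by treat against 1.5-fold. Both start from the same differences and keep the genes that were lowest. The match was therefore largely set in advance and is no separate support. Relative to the CD3 chains the 8 genes ranged from -0.41 for Sh2d2a to -0.25 for Ptpn22.

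**Figure D5:**
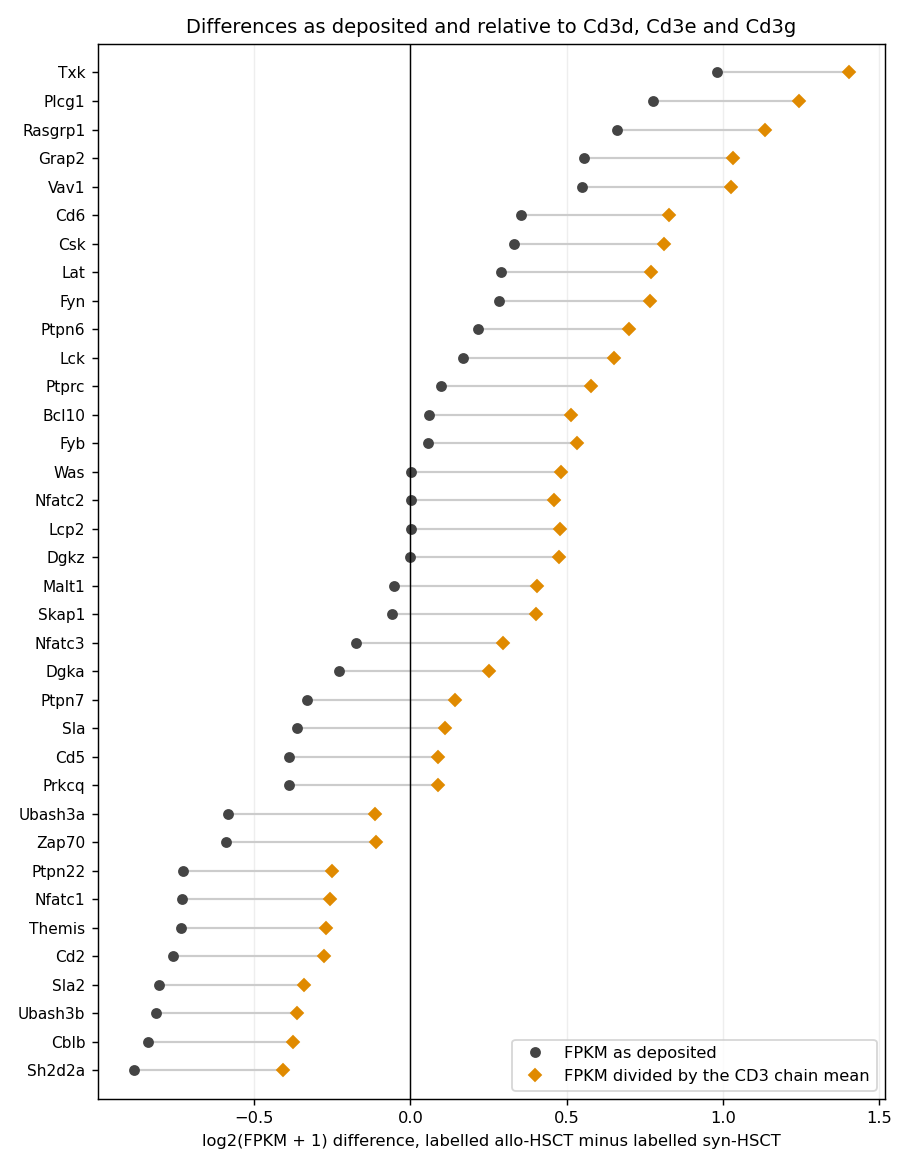
The log2(FPKM + 1) difference of each gene, allo-labelled minus syn-labelled, from FPKM as deposited (circles) and after division of each library by the mean of its CD3 chains (diamonds). All 36 diamonds lie to the right of their circles, and Cblb, Cd2, Nfatc1, Ptpn22, Sh2d2a, Sla2, Themis, Ubash3b, Zap70 and Ubash3a stay below 0.

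Transcripts of other cell types moved with the groups. By comparison, 34.7% of all genes tested were higher and 33.0% lower. Marker genes of macrophages and monocytes (9 of 9 tested higher) summed to 797 to 816 FPKM in allo-labelled and 55.8 to 58.5 FPKM in syn-labelled libraries. Dendritic cell markers (9 of 9 higher) summed to 452 to 478 FPKM in allo-labelled and 77.1 to 81.6 FPKM in syn-labelled libraries. In syn-labelled libraries most of this sum was Itgax, at 66.1 FPKM ± 1.70, against 82.4 FPKM ± 1.69 in allo-labelled libraries (SD, n = 3 each). Its log2 difference of 0.31 was the smallest of the 9, whose median was 3.65. Neutrophil markers (10 of 10 higher) summed to 2012 to 2129 FPKM in allo-labelled and 96.6 to 105.6 FPKM in syn-labelled libraries. Erythroid markers (5 of 5) summed to 60.8 to 76.5 FPKM in allo-labelled and 1.66 to 1.79 FPKM in syn-labelled libraries. Of 10 B cell markers 3 had values, with sums of 7.66 to 9.35 FPKM in allo-labelled and 8.06 to 8.33 FPKM in syn-labelled libraries, while 7, among them Ms4a1 and Pax5, were not analysed here. NK markers (2 higher and 2 lower of 4 tested) summed to 1019 to 1099 FPKM in allo-labelled and 1983 to 2120 FPKM in syn-labelled libraries, most of it from Gzma, which CD8+ T cells also express. CD4 T cell markers (2 higher and 2 lower of 4) summed to 24.3 to 26.8 FPKM in allo-labelled and 24.7 to 24.9 FPKM in syn-labelled libraries.

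Kinases and adaptors that B and myeloid cells use for the same steps were higher too. Of 9 tested, 8 were higher and 0 lower, while 34.7% of all genes tested were higher and 33.0% lower. The list summed to 181 to 186 FPKM in allo-labelled and 43.0 to 44.4 FPKM in syn-labelled libraries. Rasgrp3, a relative of Rasgrp1, was at 15.9 FPKM ± 0.220 in allo-labelled and 0.346 FPKM ± 0.112 in syn-labelled libraries. Btk, a TEC-family kinase, was at 13.2 FPKM ± 1.19 in allo-labelled and 0.757 FPKM ± 0.122 in syn-labelled libraries, and Lyn, a Src-family kinase, at 25.9 FPKM ± 0.960 in allo-labelled and 4.70 FPKM ± 0.385 in syn-labelled libraries. Syk, the relative of ZAP70, was at 9.13 FPKM ± 0.778 in allo-labelled and 5.06 FPKM ± 0.479 in syn-labelled libraries (SD, n = 3 each). Plcg1, Vav1, Csk, Fyn, Ptpn6 and Ptprc, which are higher among the 36, are also made outside T cells. They were picked from the higher genes only. Genes of the list that were lower or not called were not sorted in this way. The part of B and myeloid cells in the differences of the 36 genes was not tested.

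Further genes of the pathway were mostly higher. Of 87 listed, 85 were tested, and 47 were higher, 21 lower and 17 not called (76 higher and 3 lower relative to the CD3 chains), with a median log2 difference of 0.20. Among 33 proximal genes 21 were higher and 9 lower, which is 90.9% called. Plcg2, the phospholipase of B and myeloid cells, was 4.56-fold and Evl 2.96-fold higher. Gab2 was 6.17-fold and Trat1, an adaptor of the receptor complex, 7.06-fold higher, both at low levels. Gab2 was at 2.30 FPKM ± 0.190 in allo-labelled and 0.373 FPKM ± 0.045 in syn-labelled libraries (SD, n = 3 each). Trat1 had 2.82, 2.95 and 5.02 FPKM in allo-labelled libraries, against 0.573, 0.485 and 0.469 FPKM in syn-labelled libraries. In log2(FPKM + 1) differences Gab2 was at 1.26 and Trat1 at 1.58, below Plcg2 at 2.04. Among 17 calcium and calcineurin genes 8 were higher and 4 lower, which is 70.6% called and near the share of all genes. Itpr2, an inositol trisphosphate receptor, was 2.86-fold higher. The calcium channel genes Orai2 and Orai3 were 1.79-fold and 1.74-fold higher, and Calm3, a calmodulin gene, 1.55-fold lower.

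In the remaining branches the share of genes called was near the 67.6% of all genes tested. Of 14 genes of the NF-kappaB branch 9 were higher and 1 (Nfkbia) lower, which is 71.4% called; Relb was 2.47-fold, Nfkbie 2.46-fold and Ikbkb 1.72-fold higher. Of 13 RAS and MAP kinase genes 6 were higher and 4 lower, which is 76.9% called. Mapk14 was 1.69-fold, Map2k1 1.68-fold and Mapk8 1.60-fold higher. Of 8 genes of the PI3 kinase branch 3 were higher and 3 lower (75.0% called), with Pik3cd 1.61-fold and Pik3ap1 1.60-fold higher and Pik3r1 1.26-fold lower. The genes of these branches named with a fold had limma adjusted p of at most 0.00143.

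Genes that receptor signals induce were split. Of 18 tested, 10 were lower, 7 higher and 1 (Nr4a3) not called, with a median log2 difference of -0.28. The share called was 94.4%, against 67.6% of all genes tested. Of all genes 34.7% were higher and 33.0% lower, with a median of 0.0083. Il2ra, the interleukin 2 receptor alpha chain, was at 3.25 FPKM ± 0.540 in allo-labelled and 27.0 FPKM ± 0.831 in syn-labelled libraries, and Tnfrsf9, a costimulatory receptor, at 7.53 FPKM ± 0.332 in allo-labelled and 52.8 FPKM ± 0.779 in syn-labelled libraries. The nuclear receptor gene Nr4a2 was at 8.83 FPKM ± 0.124 in allo-labelled and 21.8 FPKM ± 0.476 in syn-labelled libraries, and Irf4, a transcription factor gene, at 4.66 FPKM ± 0.340 in allo-labelled and 10.6 FPKM ± 0.424 in syn-labelled libraries (SD, n = 3 each). The 7 that were higher were Nr4a1, Egr1, Egr2, Egr3, Nfkbid, Dusp6 and Myc.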

How the data were processed

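The authors deposited 1 table of FPKM values, 1 column per library; whether reads were paired is unstated, so the values could equally be RPKM. Limma is listed without version or role per the submitters' processing notes, while no aligner, counter or genome build is given in the sources used here. Values multiplied by exon-union lengths of GENCODE vM21 were whole multiples of a library constant, within 0.1 fragments, for 93.0% of genes in all 6 libraries (31 of the 36 members), and gave library totals of 15153632 to 18714609 fragments. Between pairs of libraries within a group, the squared difference of a gene was at the median 2.26 to 2.57 times the counting expectation (6956 to 7432 genes). The larger group mean of every gene was at least 0.5 FPKM.

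The 12404 genes that reached 1 FPKM in 3 or more libraries were fitted on log2(FPKM + 1) with limma 3.58.1 in R 4.3.3 (lmFit, eBayes with trend), without covariates, and p was adjusted by Benjamini-Hochberg; the fit was tested on simulated data. Alternatives were leaving out each library, the replicate number as a block, other filters, a pseudocount of 0.1, quantile, TMM (coded from the published formula) and CD3 scaling, leaving out mitochondrial, haemoglobin, immunoglobulin and receptor genes, eBayes without trend, treat, and voom on recovered fragments. Members and lists were chosen with earlier results of these data known. All members are named; values in every library are given for Lck, Zap70, Lat, the largest called difference of each role in each direction and members not called, and other lists give the largest called differences. Syk, Nfkbia, the pairs of the ratios and the list of B and myeloid counterparts were chosen after values were seen. Some genes that the rule names are not reported here.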

Additional observations from a re-analysis of the deposited data

How the results depend on the processing

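Calls of the 36 genes kept their side and sign without each library in turn, apart from signs of genes not called with all 6 libraries: over these 6 fits the log2 difference ranged from -0.016 to 0.023 for Lcp2, -0.022 to 0.013 for Dgkz, -0.0029 to 0.011 for Was and -0.021 to 0.021 for Nfatc2. With the replicate number as a replicate block the counts were again 12 higher and 16 lower and the median -0.027. Same-numbered libraries deviated from their group means with r of 0.063, 0.12 and -0.083 over 12404 genes. Little shared deviation was thus seen, which cannot exclude that the numbers pair libraries. Quantile normalization gave 16 higher and 16 lower, with Nfatc2 at -0.0020 and Dgkz (0.10), Lcp2, Fyb and Was called higher. TMM scaling put Lcp2 at -0.026, Was at -0.024 and Nfatc2 at -0.023, and voom on recovered fragments -0.013, -0.0089 and -0.0065; each also called 1 more gene lower, Skap1 by TMM (-0.085, limma adjusted p = 0.0476) and Malt1 by voom (-0.067, limma adjusted p = 0.0356). Dgkz was at 0.0011 without mitochondrial, haemoglobin, immunoglobulin and receptor genes. Division by the CD3 chains shifts all genes by its construction: members 24 higher and 8 lower with a median of 0.43, all genes 8448 and 1343 (86.3% of calls higher, against 51.2%), other pathway genes 76 and 3, positive regulators 17 and 2, negative regulators 5 and 4, with Prkcq at 0.088, Malt1 0.41, Ptpn7 0.14, Sla 0.11, Dgka 0.25, Dgkz 0.48, Cd5 0.090, Skap1 0.40 and Nfatc3 0.30. Treat against 1.5-fold, a stricter question by construction, called 2 members higher and 8 lower, 1486 and 894 of all genes, 18 and 1 other pathway genes, 2 and 2 positive and 0 and 4 negative regulators. The filter at 5 FPKM, with fewer genes tested, called 2817 genes higher. Among 612 values of members under alternatives, 552 kept sign and side of the threshold. The members had at least 678 fragments in every library, and the share of counting error in the spread of single members was not tested.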
